A study of Mus musculus with 714 samples.

Results

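Sprr2a2, Sprr2a3, Sprr2b and Sprr2f encode small proline-rich proteins, and they were followed here as 4 of the 12479 gene rows of a single-cell table of the developing mouse uterus. They were chosen by name, with earlier results of these data known, and are described across all ages and cell by cell. The rows of Sprr2a2 and Sprr2a3 differed in 6 of the 60 cells with a count in either, and by at most 3 counts, so the larger of the pair in each cell was taken as 1 signal, called Sprr2a below. The table holds 714 single cells of ICR mice, an outbred stock, from whole uterus and sorted for CD326 (EpCAM, a surface protein of epithelial cells), at postnatal day (pnd) 0, 7, 14, 28 and 56. No treatment or altered allele is given for any age, and the sources used here do not give the stage of the oestrous cycle at pnd56. The libraries were made by CEL-seq, in which RNA is amplified linearly by transcription and sequenced from the 3' end.

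Of the 714 cells, 24.2% were from pnd0, 37.4% from pnd7, 24.2% from pnd14, 7.84% (56 cells) from pnd28 and 6.30% (45 cells) from pnd56, and the ages summed to 582615, 732957, 354047, 96248 and 81894 counts. The median cell held 3037, 2492, 1782, 1600 and 1670 counts. Animals and pools are not named, so an age counts as 1 sample, differences between ages have no replicate to check them, and no test was made from cells. Levels are counts per 1000000 counts of all genes (CPM), and every interval is an exact 95% interval. Those of levels, ratios and shares of counts cover counting error only. Those of shares of cells treat the cells as independent draws, and none covers the spread between animals. Numbers in the titles of the cells fall into 10 blocks of 96, here called runs, with 2 runs at pnd0, 3 at pnd7, 3 at pnd14 and 1 each at pnd28 and pnd56. What a run is technically is not stated, and age and run cannot be told apart. The smooth muscle markers (6 of 10 with a row) made up 0.00687%, 0.0190%, 0.284%, 0.130% and 0.0110% of the counts from pnd0 to pnd56, and the stroma markers (9 of 11 with a row) 0.0225% at pnd0, 0.0329% at pnd7, 0.0929% at pnd14, 0.390% at pnd28 and 0.422% at pnd56.

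Small proline-rich proteins are best known from squamous epithelia such as the epidermis, where transglutaminases link them into the cornified envelope, the tough protein shell under the membrane of a dying surface cell. Their genes lie side by side in the epidermal differentiation complex, together with loricrin, filaggrin, the late cornified envelope genes and the S100 genes. In the mouse uterus, whose lining is a simple columnar epithelium that does not cornify, Sprr2 genes are known as targets of oestrogen in the luminal epithelium. Ovarian oestrogen is low before puberty and cycles in the adult.

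In the RefSeq gene table of the GRCm38.p6 build the Sprr2 genes follow each other on chromosome 3 in the order Sprr2a1, Sprr2a2, Sprr2a3, Sprr2b, the pseudogene Sprr2c-ps, Sprr2d, Sprr2e, Sprr2f, Sprr2g, Sprr2h, Sprr2i, Sprr2j-ps and Sprr2k. The authors' build was mm9, so these positions serve as a reference only. The 250 bases before the RefSeq start of Sprr2a2 (chr3:92250397-92250646), Sprr2b (chr3:92316455-92316704) and Sprr2f (chr3:92364937-92365186) are shown because the 3 signals had their highest level at the same age. All are on the + strand. Capitals mark an AP-1 motif (TGAGTCA), an octamer (ATGCAAAT, read here from the other strand as ATTTGCAT) and a TATA box (TATAAA).
Sprr2a2: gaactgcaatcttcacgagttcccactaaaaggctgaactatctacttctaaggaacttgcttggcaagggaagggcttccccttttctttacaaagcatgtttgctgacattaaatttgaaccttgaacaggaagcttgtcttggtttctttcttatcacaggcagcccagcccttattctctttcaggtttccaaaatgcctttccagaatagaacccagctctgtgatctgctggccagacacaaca
Sprr2b: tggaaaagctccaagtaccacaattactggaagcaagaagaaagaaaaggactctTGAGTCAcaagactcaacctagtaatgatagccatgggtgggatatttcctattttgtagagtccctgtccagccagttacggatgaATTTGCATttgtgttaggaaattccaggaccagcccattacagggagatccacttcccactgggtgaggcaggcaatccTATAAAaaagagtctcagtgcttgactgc
Sprr2f: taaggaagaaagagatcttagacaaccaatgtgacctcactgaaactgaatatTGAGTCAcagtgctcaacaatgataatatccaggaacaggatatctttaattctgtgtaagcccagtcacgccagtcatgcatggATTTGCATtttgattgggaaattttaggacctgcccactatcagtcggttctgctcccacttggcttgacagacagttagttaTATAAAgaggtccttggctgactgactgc

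All 3 motifs stand in the Sprr2b and Sprr2f windows, in the same order, and equally in those of Sprr2d, Sprr2e, Sprr2h, Sprr2i and Sprr2k, so they do not set the members apart in the family (Sprr2d has 8 counts and Sprr2e 2 in all cells). The octamer begins 87 bases after the AP-1 motif begins in Sprr2b and 85 in Sprr2f, the TATA box 79 and 83 bases after the octamer, and the TATA box lies 29 bases before the start in both. The windows of Sprr2b and Sprr2f are identical in 64.4% of aligned columns, no closer than Sprr2b is to Sprr2e (65.8%) or Sprr2f to Sprr2e (73.9%). Searched on both strands, the AP-1 motif was in 4.46% of all 32851 windows of this length, the octamer in 1.60% and TATAAA in 12.4%, and no 2 of these motifs overlap in the windows shown. The RefSeq windows of Sprr2a2 and Sprr2a3 hold none of the 3, and whether these genes start there in the uterus was not tested. A full oestrogen response element (GGTCANNNTGACC), found in 0.0639% of all windows, was in none of the windows of Sprr2a2, Sprr2a3, Sprr2b and Sprr2f. These matches are letters in a window and say nothing of binding.

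The 3 signals were rare up to pnd14, higher at pnd28 and highest at pnd56. Summed, they took 34.3 CPM at pnd0, 120 at pnd7, 25.4 at pnd14, 1122 at pnd28 and 19134.5 at pnd56. Sprr2a was at 5.15 CPM at pnd0 (95% interval 1.06 to 15.05), 27.3 at pnd7 (16.7 to 42.1), 5.65 at pnd14 (0.684 to 20.4), 561.1 at pnd28 (421.5 to 732) and 4958 at pnd56 (4487 to 5464). Its intervals at pnd0 and pnd14 overlap, and those of pnd28 and pnd56 lie apart from each other and from the rest. Sprr2b was at 15.4 CPM at pnd0 (7.06 to 29.3), 64.1 at pnd7 (47.1 to 85.3), 8.47 at pnd14 (1.75 to 24.8), 145.5 at pnd28 (79.5 to 244.1) and 7278 at pnd56 (6705 to 7886). The Sprr2b intervals of pnd7 and pnd28 overlap, so of the 3 signals it was the one whose level at pnd28 was nearest to that of the first postnatal week. Sprr2f was at 13.7 CPM at pnd0 (5.93 to 27.1), 28.7 at pnd7 (17.7 to 43.8), 11.3 at pnd14 (3.08 to 28.9), 415.6 at pnd28 (296.9 to 565.9) and 6899 at pnd56 (6342 to 7492). At pnd0, pnd7 and pnd14 the Sprr2f intervals overlap.

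**Figure D1:**
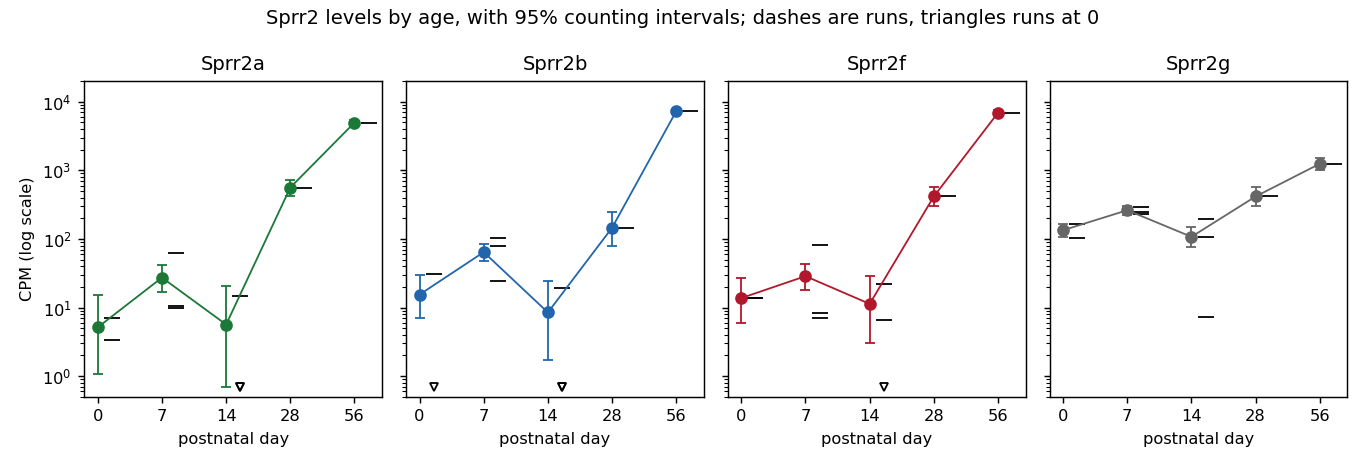
Level of Sprr2a, Sprr2b, Sprr2f and the neighbouring pseudogene Sprr2g (CPM, log axis) against postnatal day. Points are the level of an age, bars its exact 95% counting interval, dashes the runs of that age and triangles runs with 0 counts; the 3 signals lie below their pnd28 level up to pnd14, Sprr2b at pnd7 with an interval that overlaps that of pnd28, and reach 4958, 7278 and 6899 CPM at pnd56, while Sprr2g spans a narrower range.

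From pnd28 to pnd56 Sprr2b was higher by 5.64 on the log2 scale (95% interval 4.89 to 6.52), a 50.03-fold difference that rests on 14 counts at pnd28 and 596 at pnd56. Only 1 of the 1797 rows with at least 20 counts over both ages had a higher ratio. Sprr2f was 16.6-fold higher (log2 4.05, 3.59 to 4.55, from 40 counts at pnd28), with 10 rows above it. Sprr2a was 8.84-fold higher (log2 3.14, 2.73 to 3.58, from 54 counts at pnd28), with 21 rows above it. The members were chosen with earlier results of these data known, so their places among all rows describe them and test nothing. By counting error alone, the Sprr2b interval lies well above the others, and those of Sprr2f and Sprr2a stay apart only narrowly. The spread between cells or animals is not in these intervals, and the 14 pnd28 counts of Sprr2b lay in 3 cells. As means over cells the log2 ratios were 5.70 for Sprr2b, 4.02 for Sprr2f and 2.64 for Sprr2a. All 3 signals were at least 2-fold higher, where 14.8% of the 1797 rows were (16.5% were as much lower), and the median row differed by 0.06.

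Between pnd14 and pnd28 the order was another. Sprr2a was 99.3-fold higher at pnd28 (log2 6.63, 4.71 to 9.72, from 2 to 54 counts), Sprr2f 36.8-fold (log2 5.20, 3.73 to 7.15, from 4 to 40) and Sprr2b 17.2-fold (log2 4.10, 2.26 to 6.54, from 3 to 14). Their intervals overlap, since each pnd14 value holds 4 counts or fewer. All 3 signals were at least 2-fold higher, against 11.9% of the 3785 rows with at least 20 counts over both ages (23.2% were as much lower). Sprr2b itself has only 17 counts over both. Leaving out run 3 of pnd14 gave at least 5.36 for Sprr2a (no count left at pnd14), 3.41 for Sprr2b and 6.51 for Sprr2f, and leaving out run 7 gave 5.81 for Sprr2a and at least 3.28 for Sprr2b. Without the cell of the largest count at each age Sprr2a was at least 5.77 and Sprr2f 5.85, the mean over cells gave 4.28 for Sprr2f, and equal depth gave 5.78 for Sprr2a. Over the whole span from pnd0 to pnd56 the log2 difference was 9.91 for Sprr2a (8.35 to 12.19), 8.88 for Sprr2b (7.95 to 10.02) and 8.97 for Sprr2f (7.98 to 10.19), where 10.3% of 4725 rows were at least 2-fold higher. These came to 10.52 for Sprr2a and 7.90 for Sprr2b without run 2 of pnd0, 9.24 and 8.15 as means over cells, and 10.17 for Sprr2b and 9.74 for Sprr2f without the cells of the largest count.

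In the first 2 postnatal weeks the signals were low and uneven. Sprr2b was higher at pnd7 than at pnd0 by 2.05 on the log2 scale (1.01 to 3.27) and lower again at pnd14 by 2.92 (log2 ratio -2.92, -5.25 to -1.28). All 9 Sprr2b counts of pnd0 lay in 2 cells of run 1 (30.5 CPM), run 2 had none, and the 3 runs of pnd7 had 78.02, 102.3 and 24.6 CPM, so the runs of the pair of ages overlap. Without run 2 the difference between pnd7 and pnd0 was 1.07, and without the cell of the largest count at each age it was 3.25. The ratio of pnd14 to pnd7 was -2.23 without run 3 and at most -2.10 without run 7, which held all 3 pnd14 counts. Sprr2f had 17 of its 21 pnd7 counts in run 6. Its log2 ratio of pnd7 to pnd0 was 1.06 (-0.17 to 2.45) with that run and -0.86 without it, and the ratio of pnd14 to pnd7 was -1.34 (-3.35 to 0.22) with it and 0.58 without it, so no direction can be given for Sprr2f at these ages. Without run 3 of pnd14 the second ratio was -2.65, and as a mean over cells -0.70. The first was 1.72 both at equal depth and as a mean over cells.

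Sprr2a was likewise higher at pnd7 than at pnd0 (log2 2.41, 0.65 to 4.80) and lower at pnd14 (log2 ratio -2.27, -5.41 to -0.23). Of its 20 counts at pnd7, 15 lay in run 5, and without that run these ratios were 0.99 and -0.85. Leaving out run 2 gave 3.01 for the first, and leaving out run 7 gave -1.45 and run 3 at most -0.99 for the second, which was at most -0.68 without the cell of the largest count at each age. In 7 of the 9 pnd7 cells with both Sprr2a and Sprr2b the counts of the pair were equal, another cell had 10 and 11, and no pnd7 cell had Sprr2a without Sprr2b. Of the windows of 50 bases in the last 300 bases of the shorter of 2 annotated Sprr2a3 transcripts, 39 (15.5%) also occur in Sprr2b, and for the shorter of 2 Sprr2a2 transcripts 48 (19.1%) do. The longer transcript of each gene shares none. Which of them was counted is not known, so Sprr2a at pnd7 cannot be told apart from reads of Sprr2b. At pnd28, by contrast, 13 of 16 cells with Sprr2a had no Sprr2b, with up to 10 Sprr2a counts in a cell, and at pnd56 this held for 8 of 31 cells, with equal counts in 1 of the 23 cells with both. Sprr2f shares no such window with Sprr2a2, Sprr2a3 or Sprr2b. All 3 signals were at least 2-fold higher at pnd7 than at pnd0, as were 4.94% of 5953 rows. They were at least 2-fold lower at pnd14 than at pnd7, as were 14.3% of 5553 rows. The interval kept to 1 side of no difference for Sprr2a and Sprr2b, not for Sprr2f. These are not 3 separate results. Sprr2a here cannot be told apart from reads of Sprr2b, and no direction can be given for Sprr2f.

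The share of cells with a count was also highest at pnd56 for each signal. Sprr2f was counted in 1.73% of pnd0 cells, 3.75% of pnd7, 1.73% of pnd14, 26.8% of pnd28 (15.8 to 40.3%) and 82.2% of pnd56 cells (67.9 to 91.998%). Sprr2a was counted in 1.73%, 3.37%, 0.578%, 28.6% (17.3 to 42.2%) and 68.9% (53.4 to 81.8%) of cells at these ages. Sprr2b was counted in 1.16%, 5.62%, 1.73%, 5.36% (1.12 to 14.9%) and 57.8% (42.2 to 72.3%). At pnd28 Sprr2b was thus in 3 cells, against 16 with Sprr2a and 15 with Sprr2f. With every cell thinned to 1500 counts, which leaves out 23 of the 56 pnd28 cells and 20 of the 45 pnd56 cells, the expected shares at pnd28 and pnd56 were 29.1% and 70.9% for Sprr2a, 8.48% and 65.6% for Sprr2b, and 29.2% and 81.5% for Sprr2f. At least 1 of the 3 signals was counted in 42 of 45 pnd56 cells (93.3%) and in 24 of 56 pnd28 cells (42.9%).

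Within pnd56 the level was spread very unevenly over cells. A median cell held 2 counts of Sprr2a, 2 of Sprr2b and 5 of Sprr2f, while the highest cell of each held 24.6%, 20.3% and 17.5% of all its counts. Of all Sprr2a counts, 50% lay in 4 cells, as did 50% of Sprr2b, while 6 cells held 50% of Sprr2f. The 5 highest cells held 64.04% of Sprr2a, 70.5% of Sprr2b and 48.1% of Sprr2f counts. The 3 signals together made up 0.815% of the counts of a median pnd56 cell and 8.06% of the highest one. That cell, of 2135 counts, gave 5.67% of its counts to Sprr2b, with 49 counts of Sprr2a and 2 of Sprr2f. Another cell, of 3269 counts, had the order turned round, with 99 of Sprr2f, 63 of Sprr2b and 12 of Sprr2a. One more, of 2037 counts, held 21 of Sprr2f and none of the others.

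**Figure D2:**
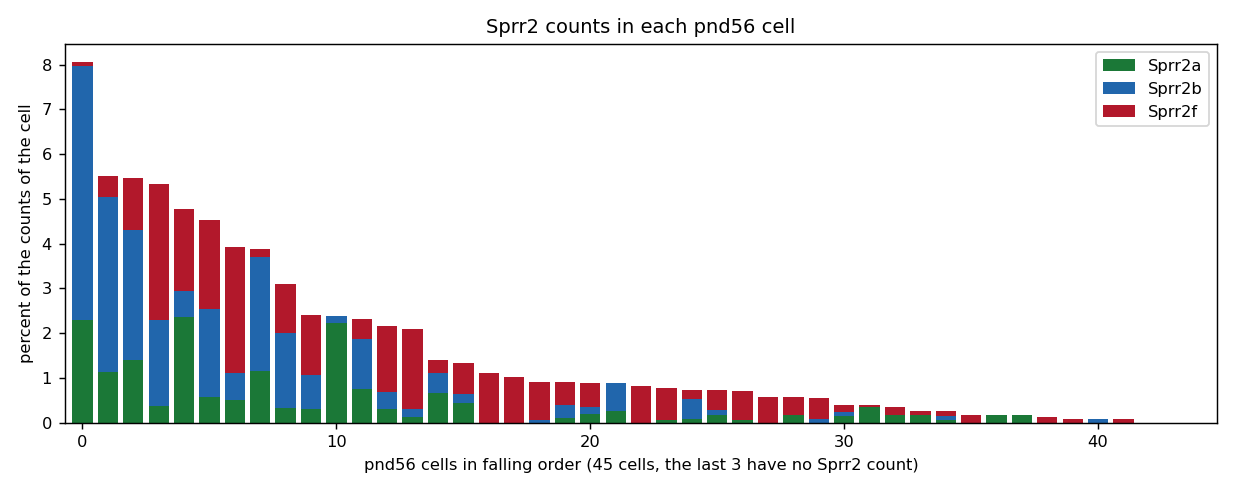
Percent of the counts of each of the 45 pnd56 cells that are Sprr2a (green), Sprr2b (blue) and Sprr2f (red), stacked, with cells in falling order of the sum. The sum runs from 8.06% to 0, with a median of 0.815%, and cells of like sums differ in which colour leads.

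The signals differed in which of them led in a cell. Sprr2f had the most counts in 24 of the 42 pnd56 cells with any, Sprr2b in 9 and Sprr2a in 7, with 2 ties. In the 16 pnd56 cells with at least 20 counts of the 3, Sprr2f made up from 0 to 100% of them (median 41.1%), Sprr2b from 0 to 70.99% (median 34.1%) and Sprr2a from 0 to 92.6% (median 17.6%). CEL-seq reads the transcript end, so counts were not divided by length, and how well each gene was captured and mapped is not known. At pnd28 Sprr2a led in 10 of 24 cells, Sprr2f in 9 and Sprr2b in 2, with 3 ties. Of the summed counts of the 3, Sprr2a made up 50% at pnd28 (40.2 to 59.8%) and 25.9% at pnd56 (23.8 to 28.2%), and Sprr2b 12.96% (7.27 to 20.8%) and 38.03% (35.6 to 40.5%). With the rows of Sprr2a2 and Sprr2a3 summed instead, Sprr2a made up 40.9% at pnd56, Sprr2b 30.4% and Sprr2f 28.8%, so the order of the 3 depends on how the pair of rows is counted. With the larger row, the part of Sprr2f was 37.04% (27.9 to 46.9%) and 36.1% (33.7 to 38.5%). With every cell given the same weight, Sprr2b made up 5.95% at pnd28 and 22.5% at pnd56, and Sprr2f made up 52.4% at pnd56.

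Most adult cells held more than 1 signal. At pnd56, 21 of 45 cells (46.7%) had all 3, 8 had Sprr2f only, 6 had Sprr2a and Sprr2f, 2 had Sprr2b and Sprr2f, 2 had Sprr2a and Sprr2b, 2 had Sprr2a only, 1 had Sprr2b only and 3 had none. At pnd28, 3 of 56 cells had all 3, 4 had Sprr2a and Sprr2f, 9 had Sprr2a only, 8 had Sprr2f only and 32 had none. Each of the 3 pnd28 cells with Sprr2b thus held the other pair as well. At pnd7, 10 cells had Sprr2f only, 6 had Sprr2b only and 9 had Sprr2a and Sprr2b. No pnd7 cell had Sprr2f with another, where so few cells hold either that nothing can be read from it.

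**Figure D3:**
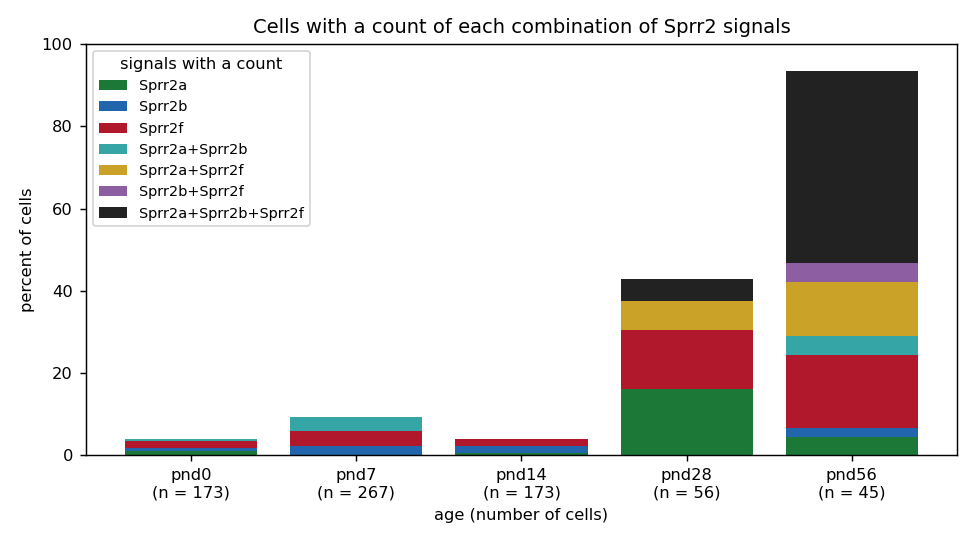
Percent of the cells of each age with a count of each combination of Sprr2a, Sprr2b and Sprr2f, stacked, with the number of cells under each bar; a single name in the key means that signal alone. Cells with all 3 make up 46.7% of pnd56, and at pnd28 most cells with a count have 1 signal only.

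At pnd56 the closest pair cell by cell was Sprr2a and Sprr2b. Sprr2b was counted in 23 of 31 cells with Sprr2a (74.2%, 55.4 to 88.1%) and in 3 of 14 cells without it (21.4%, 4.66 to 50.8%), with median depths of 1773 and 1504.5 counts. Sprr2b was counted in 23 of 37 cells with Sprr2f (62.2%) and in 3 of 8 without it (37.5%). Sprr2a was counted in 27 of 37 (72.97%) and 4 of 8 (50%), and the intervals of both pairs overlap. In cells of at least 1500 counts this order turned round. There Sprr2b was in 14 of 21 cells with Sprr2f (66.7%) and 3 of 4 without it (75%), and Sprr2a in 15 of 21 (71.4%) and 3 of 4 (75%). Across the 43 pnd56 cells of at least 1000 counts, Spearman's rho of counts per 10000 was 0.76 for Sprr2a with Sprr2b, 0.42 for Sprr2b with Sprr2f and 0.26 for Sprr2a with Sprr2f. These cells share 1 run, rho with the total count of the cell was 0.30, 0.39 and 0.20 for Sprr2a, Sprr2b and Sprr2f, and the part of the read sharing in the first value was not tested.

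A rule set the genes with the highest rho to each signal among rows counted in at least 30% of those cells. For Sprr2b they were Sprr2a, Nelfe (0.72), Plet1 (0.70), Spink12 (0.68), Ltf (0.65), Tmem14c (0.61), B2m (0.60) and Cldn3 (0.59). Spink12 is a protease inhibitor, Ltf encodes the iron-binding secretory protein lactoferrin, and Cldn3 a tight junction protein. For Sprr2a they were Sprr2b, Spink12 (0.65), Nelfe (0.61), Ltf (0.60), Ephb6 (0.50), Cxcl2 (0.49), Cbr2 (0.49) and Plet1 (0.47), so 4 of the genes other than the members stand in both lists. For Sprr2f they included Clic1 (0.58), Fuca1 (0.58), Tmem14c (0.55), Fam20c (0.49), Ctsa (0.49), Car2 (0.49) and Smox (0.49), of which Tmem14c alone is in another list. Fuca1 and Ctsa encode lysosomal enzymes and Car2 carbonic anhydrase 2. Prap1, a secreted proline-rich acidic protein that is abundant in the adult uterus, had rho of -0.36 with Sprr2a, -0.20 with Sprr2b and 0.34 with Sprr2f. The pnd56 cells behind these values include 2 with stroma markers, described below, that had no count of Prap1 or Ltf. The rho values with genes other than the members were not computed without them. In RefSeq the complement gene Cfb lies next to Nelfe, with a gap of 1 base, and has a row of its own, so reads of Nelfe and Cfb may be shared. Across 52 pnd28 cells the rho values were 0.34 for Sprr2a with Sprr2b, 0.38 for Sprr2b with Sprr2f and 0.20 for Sprr2a with Sprr2f.

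**Figure D4:**
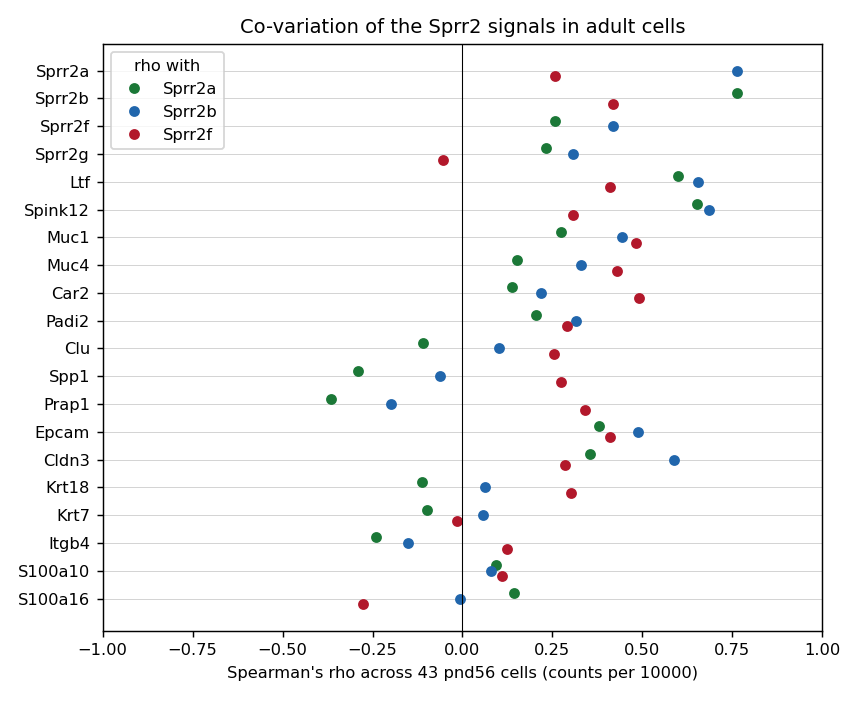
Spearman's rho of Sprr2a (green), Sprr2b (blue) and Sprr2f (red) with each other and with genes of the oestrogen, luminal and other lists, across 43 pnd56 cells of at least 1000 counts. Sprr2a and Sprr2b lie together for Ltf and Spink12, and Prap1 is negative for both and at 0.34 for Sprr2f. The stroma marker-positive cells are included.

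Over the 10 runs the rows most like Sprr2f, by Pearson's r of log2(CPM + 10) among 3394 rows with at least 100 counts, were Rpn2 (0.96), Napsa (0.95), Sprr2a3 (0.93), Sprr2a2 (0.93), Gpx3 (0.93), Prap1 (0.93), Cxcl2 (0.93) and Nelfe (0.93). Sprr2b stood at place 11 with 0.91. Rpn2 is a subunit of the oligosaccharyltransferase of the endoplasmic reticulum, Napsa an aspartic protease and Gpx3 a secreted glutathione peroxidase. These values describe runs of 5 ages, and they rest mainly on the single runs of pnd28 and pnd56. Rpn2 was at 1392 CPM at pnd56 against 549.2 at pnd0, a far smaller span than that of Sprr2f.

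The cells also included some with markers of other tissues. At pnd56, 2 cells had counts of at least 3 stroma genes other than Vim. One of them, of 4509 counts, held 100 counts of Sprr2a, 24.6% of those of its age and the most of any cell, with 8 of Sprr2b and 0 of Sprr2f. It also held 72 counts of Col1a2, 54 of Col3a1 and 24 of Dcn (collagen and decorin of fibroblasts), 2 of the epithelial keratin Krt18 and 0 of Epcam. The other, of 2253 counts, held 4 of Sprr2a and none of the others. Without both, Sprr2a at pnd56 was at 4020 CPM and its difference from pnd28, leaving out the marker-positive cells there too, was 2.64 on the log2 scale. Spearman's rho of Sprr2a with Sprr2b was then 0.79. How the Sprr2a counts of this cell arose was not tested. The summed stroma markers were, like the members, highest at pnd28 and pnd56. Of 6 measured stroma genes 4 were at least 2-fold higher at pnd56 than at pnd28 (median log2 1.25), against 14.8% of all rows. Only Dcn was as much lower (log2 ratio -2.49), against 16.5%. Of the 4, Col1a1, Col1a2 and Col3a1 had nearly all their pnd56 counts in the 2 stroma marker-positive cells. These cells held 15 and 3 of 18 Col1a1 counts, 72 and 5 of 78 of Col1a2, and 54 and 6 of 63 of Col3a1. The other higher gene was Fbln1 (1.48). All 5 measured were at least 2-fold higher at pnd56 than at pnd0 (median 7.12), against 10.3% of all rows. Beyond the values without the marker-positive cells, the part of stroma in the Sprr2 levels was not tested.

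At pnd28, 6 cells were positive for stroma or smooth muscle markers, with a median depth of 2055.5 counts. None had Sprr2a or Sprr2b and 1 had a single count of Sprr2f, while of the 50 other cells (median 1597.5 counts) 32% had Sprr2a, 6% Sprr2b and 28% Sprr2f. The upper limit for 0 of 6 cells is 45.9%, so the pair of groups cannot be told apart at this number. At pnd14 none of the 21 cells with such markers had any of the 3 (upper limit 16.1%).

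Markers of the epithelium moved beside the members. Luminal markers, with 14 of 15 in the table, made up 1.004% of counts at pnd28 and 2.35% at pnd56, and Calb1 and Lpar3 were at 0 at both ages. Most of the difference in this sum was Prap1, which went from 70 to 1017 counts, whereas Epcam differed by 1.30 and Krt18 by -0.12 on the log2 scale. Glandular markers (8 of 10) made up 1.86% at pnd28 and 0.248% at pnd56, with Prss28 and Prss29, gland proteases, at 5787 and 11886 CPM at pnd28 and 0 at pnd56. Spink12, the other measured gene of this list, was higher at pnd56 by 1.54 (1.15 to 1.94). Squamous and basal markers (13 of 18) made up 0.178% and 0.154%, most of it Itgb4 at 1330 and 1087 CPM. Of these 13 rows, 6 were at 0 at pnd28, among them Krt14 but not Trp63, the master factor of basal squamous cells, and 4 at pnd56, among them Trp63 but not Krt14. Immune markers (7 of 12) made up 0.0478% and 0.0293%, with the pan-leukocyte marker Ptprc at 0 at both ages and Laptm5 at 17 and 9 counts. The part that the makeup of the sorted cells had in the Sprr2 levels was not tested.

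Oestrogen-responsive uterine genes, a list that leaves out the Sprr2 genes and has 28 of 35 in the table, gave 14 measured genes between pnd28 and pnd56. Of these, 9 were at least 2-fold higher and 2 lower, against 14.8% and 16.5% of all rows. Their median log2 difference was 1.90, where the median of all genes was 0.06. The list was chosen with earlier results of these data known, so these shares describe it and test nothing. Spp1, which encodes osteopontin, was higher by 6.16, the peptidylarginine deiminase Padi2 by 4.28, the mucin Muc4 by 4.14, Prap1 by 4.09, the kallikrein Klk1 by 3.23, Car2 by 1.91 and the mucin Muc1 by 1.80. Ltf, a classical oestrogen target, differed by only 0.48 and Clu, which encodes clusterin, by 0.11. The 2 lower genes were the growth factor Igf1 (log2 ratio -1.85, -3.88 to -0.24) and the immediate early gene Fos (-1.09). Between pnd14 and pnd28, 6 of 12 measured genes were at least 2-fold higher and 2 lower, against 11.9% and 23.2% of all rows, with a median of 0.94 against -0.23. There Ltf was higher by 2.12, Clu by 2.10 and Prap1 by 6.01. The 2 lower genes were the progesterone receptor Pgr (log2 ratio -2.44, -7.82 to 0.20) and Padi2 (-1.41, -3.35 to 0.06). They had 1 and 4 counts at pnd28.

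Other genes of the cornified envelope and the epidermal differentiation complex did not include any measured gene that was 2-fold higher at pnd56 than at pnd28. Of 52 listed genes, which leave out the Sprr2 genes, Sprr1a and Sprr1b, 28 had a row. This list, too, was chosen with earlier results of these data known. Between pnd28 and pnd56 the 9 measured genes had a median of -0.72. None was at least 2-fold higher and 3 were lower, against 14.8% and 16.5% of all rows. These 3 were Krtdap, a keratinocyte differentiation protein (-2.71, with 3 counts at pnd56), S100a4 (-1.53) and S100a6 (-1.39). At pnd56, the age with the fewest counts (81894), 16 of the 28 rows were at 0, among them Lor (loricrin), Flg (filaggrin) and Tgm1, the transglutaminase of the envelope. Rows at 0 numbered 9 at pnd0, 2 at pnd7, 14 at pnd14 and 13 at pnd28. Lor and Flg were also at 0 at pnd0, pnd14 and pnd28, and Tgm1 at pnd0, pnd7 and pnd14. Between pnd14 and pnd28, 5 of 10 measured were at least 2-fold higher, none lower, against 11.9% and 23.2% of all rows, with a median of 1.13. S100a14 was higher by 4.51, Anxa1 by 2.02 and Krtdap by at least 4.82, as it had no count at pnd14.

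Of the 6 other rows with a Sprr name, Sprr2g alone had more than 13 counts. RefSeq lists it as a transcribed pseudogene next to Sprr2f. It was at 133.9 CPM at pnd0, 261.95 at pnd7, 107.3 at pnd14, 415.6 at pnd28 and 1246 at pnd56, so it was above all 3 signals up to pnd14 and below them at pnd56. Its log2 difference from pnd28 to pnd56 was 1.58 (1.04 to 2.15), an interval that lies below those of Sprr2a, Sprr2b and Sprr2f. From pnd0 to pnd7 it was higher by 0.97 (0.58 to 1.37), and at pnd7 it was counted in 25.8% of cells, against 40% at pnd56. Across pnd56 cells its rho with the signals was 0.23 for Sprr2a, 0.31 for Sprr2b and -0.06 for Sprr2f, its direct neighbour. Sprr2a1 had 13 counts in all cells, although all such end windows of its transcript also occur in Sprr2a2, so reads of Sprr2a1 may stand in the Sprr2a signal. Sprr2d had 8 counts in all (6 of them at pnd56), Sprr1b 3, Sprr2e 2 and Sprr1a 2.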

How the data were processed

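The authors deposited 1 table of whole-number counts per gene and cell, taken here as raw counts because the totals of cells differ. Per the submitters' processing notes, TopHat, Cuffnorm and the mm9 build were used, with neither roles nor versions stated. The sources used here do not say whether molecular identifiers were collapsed. From the deposited counts, levels were computed as sums over the cells of an age per 1000000 counts (CPM), with exact Poisson intervals. Intervals of ratios are exact conditional binomial ones and those of shares are Clopper-Pearson ones, all at 95%. An age at 0 was set to a floor of 3 counts over that age, which gives the bounds written as "at least" or "at most". List genes needed at least 20 counts over a pair of ages to be measured. Ratios were computed for 5 comparisons of ages that share samples. The ratio intervals were checked on simulated Poisson counts, which have the counting error that these intervals assume. The check does not cover counts that gather in few cells, as those of the members do.

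The members always, every other Sprr row, measured list members and the 8 rows most like a signal could be named. The members and lists were chosen with earlier results of these data known. Trp63, Krt14, Lor, Flg, Tgm1, Ptprc, Calb1 and Lpar3 are named as rows at 0, and Cfb as a neighbour. Of the rows most like Sprr2f across cells, 1 is not reported here. Lists of ciliated, endothelial, immune and erythroid markers made up 0.00611%, 0.0305%, 0.0293% and 0.00244% of pnd56 counts. Sequences came from RefSeq (GRCm38.p6), where all 4 members matched by symbol, and transcript ends from GENCODE M21, used for names and sequence only. Python 3.11.15, pandas 2.3.3, scipy 1.17.1 and biopython 1.88 were used.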

Additional observations from a re-analysis of the deposited data

How the results depend on the processing

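Under the alternatives, all but 6 log2 ratios stayed within the counting interval of the reported value, as did 12 of 12 co-detection shares, 24 of 30 shares of cells and 8 of 18 shares among the Sprr2 counts. Without the stroma marker-positive cells the correlations across pnd56 cells were 0.79 for Sprr2a with Sprr2b, 0.34 for Sprr2a with Sprr2f and 0.42 for Sprr2b with Sprr2f. Of the log2 ratios that did not, that of Sprr2a between pnd28 and pnd56 was 2.64 both as a mean over cells and without marker-positive cells, and that of Sprr2b between pnd0 and pnd56 was 10.17 without the cell of the largest count. The other 3 came from leaving out a run at a time, which gave 7.90 to at least 9.44 (no pnd0 count left) for Sprr2b between pnd0 and pnd56, -0.86 to 1.62 for Sprr2f between pnd0 and pnd7, and -2.65 to 0.58 between pnd7 and pnd14. Median-of-ratios scaling shifted all log2 ratios by 0.10 between pnd7 and pnd14 and by 0.19 between pnd0 and pnd56. At pnd28 the shares among the Sprr2 counts were 66.7% for Sprr2a and 24.7% for Sprr2f with the rows of Sprr2a2 and Sprr2a3 summed, and 5.95% for Sprr2b as a mean over cells. At pnd56 they were 40.9%, 30.4% and 28.8% for Sprr2a, Sprr2b and Sprr2f with the rows summed, 28.3% for Sprr2a and 33.5% for Sprr2f without the cell of the most counts, and 22.5% for Sprr2b and 52.4% for Sprr2f as means over cells. The alternatives on shares among the Sprr2 counts and on the correlations were chosen after seeing the data. No paired analysis was possible because the labels number no animals or replicates across ages. With 1 run each at pnd28 and pnd56, no run could be left out there. At pnd0 and pnd14 the members hold 9 counts or fewer, which limits every ratio against those ages.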
